A study of Amia calva with 36 samples.

Results

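The 64 genes described here were read in all 12 libraries of the latest stage of a bowfin foregut series and in few of the earlier libraries. They are called late-read genes. The bowfin (Amia calva) is a ray-finned fish that breathes air with a gas bladder. RNA was sequenced from laser-captured foregut of embryos at stage 24, just ahead of gas bladder budding, at stage 25, during budding, and at stage 27, during outgrowth. At each stage dorsal endoderm, ventral endoderm, dorsal mesoderm and ventral mesoderm were captured, with 3 libraries per region and stage, or 36 libraries in 12 groups. The labels name no strain, genotype or treatment, and they state that the embryos were raised from eggs taken from wild nests at 12.8 °C. The dorsal captures are labelled as dorsal foregut and gas bladder together. The labels do not say which libraries came from the same embryo, so a p-value here reflects only how far libraries of a group differ, which may be technical.

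The embryonic foregut is a tube of endoderm, the inner epithelium, wrapped in mesoderm, which forms the connective tissue, smooth muscle and vessels around it. In air-breathing vertebrates an air-filled organ buds from this tube, and signals pass between the epithelium and the mesoderm as the bud grows. Genes transcribed in both layers and on both sides of the tube include those that serve basic functions of every cell, alongside any that the whole tissue switches on at a given time. The table names genes by bowfin identifier and, for some, by the Ensembl identifier of the spotted gar ortholog. It pairs neither with a gene symbol, so the roles of the 64 genes are not described, and the captured layers were not checked against their marker genes.

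Members were chosen from measured values. Of 21948 genes in the table, 11428 had a gar ortholog, and 3047 of those had at least 1 read in each of the 12 stage 27 libraries. Of the 3047, 92 had a read in at most 4 of the 24 libraries of stages 24 and 25. In 64 of the 92, the largest and the smallest of the 4 stage 27 group means lay less than 2 apart in log2 CPM, where CPM is the read count of a gene divided by the total of its library and put on a common scale. These 64 are all the members, 2.10% of the 3047, and the limit of 150 genes in the rule was not reached. All 64 also passed the filter on low values used in the fits, a CPM above 1 in at least 3 libraries, which 14132 genes passed. The difference between stage 27 and the earlier stages and the differences among the 4 regions of stage 27 were thus used to choose the genes, and are given below as descriptions with no test.

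The edges of the rule were well filled. Read in 5 earlier libraries instead of at most 4, and otherwise meeting the rule, were 50 genes. A further 113 genes were read in 11 of the 12 stage 27 libraries and met the other conditions. For 95 of the 113, the missing library was 1 of the 3 stage 27 libraries with the fewest genes. These were replicate 3 of dorsal mesoderm (8511 genes with a read), replicate 2 of dorsal endoderm (8544) and replicate 3 of ventral endoderm (8583). Just inside the limit on regional range were AMCG00009888 (1.97) and AMCG00014725 (1.90), and just outside it AMCG00010830 (2.05) and AMCG00017672 (2.14). The 3047 genes from which members were drawn had a read in a median of 14 earlier libraries, against 3 for the members.

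**Figure D1:**
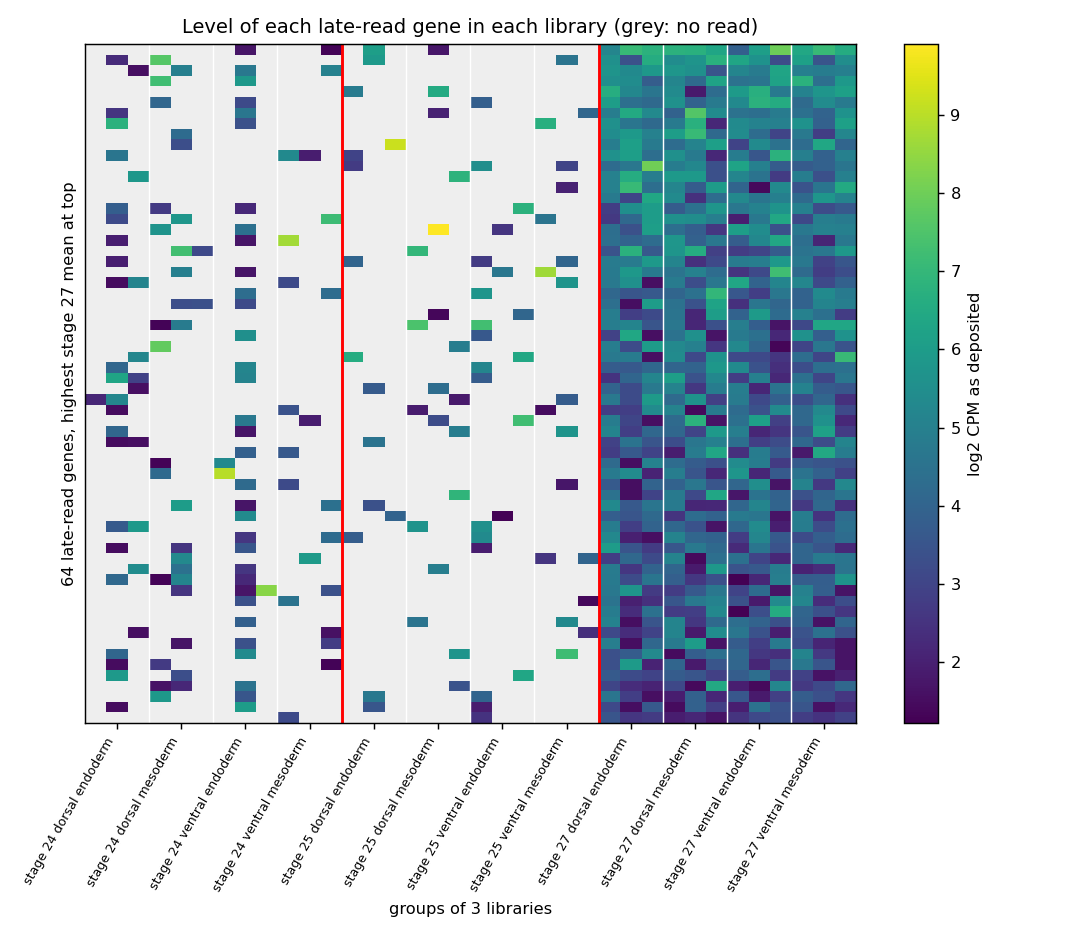
Deposited log2 CPM of the 64 late-read genes (rows, highest stage 27 mean at the top) in 36 libraries (columns, in groups of 3, red lines between stages). Grey marks no read. Every gene has a value in all 12 stage 27 libraries, and 198 of the 1536 earlier positions hold one.

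At stage 27 the late-read genes were present at low to middling levels. Their mean over the 12 libraries ran from 4.88 to 102 CPM, with a median of 21.5 CPM. On the log2 scale the median of their means was 4.05, against 3.46 for the 14132 tested genes and 5.87 for the 3047 genes read in all 12 libraries. Most values rested on more than a few reads. The median was 21 reads per gene and library, 562 of 768 values had at least 10 reads, and 28 of 768 had 1 read. Of all stage 27 reads, the 64 genes together made up 0.168% ± 0.0102 in dorsal endoderm, 0.156% ± 0.0236 in ventral endoderm, 0.175% ± 0.00990 in dorsal mesoderm and 0.146% ± 0.0153 in ventral mesoderm (SD, n = 3 each). In the 8 earlier groups the share ran from 0.0217% ± 0.0206 in stage 24 dorsal endoderm to 0.0610% ± 0.0434 in stage 25 dorsal mesoderm.

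AMCG00020647 (ENSLOCG00000002319) had the highest stage 27 level. Replicates 1 to 3 held 34.7, 134 and 110 CPM in the dorsal endoderm, 13.0, 66.4 and 254 CPM in the ventral endoderm, 110, 105 and 78.8 CPM in the dorsal mesoderm, and 85.3, 135 and 93.1 CPM in the ventral mesoderm. The 4 groups overlapped, and ventral endoderm held both the lowest and the highest library. Its mean was 102 ± 60.1 CPM at stage 27 (SD, n = 12) and 2.91 ± 13.5 CPM over the 24 earlier libraries. In 3 of its 4 earlier libraries it had 1 or 2 reads, and in replicate 2 of stage 25 dorsal endoderm it had 93 reads, or 66.2 CPM. That library lay within the stage 27 range.

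AMCG00005430 (ENSLOCG00000007144) came next, at 50.3 ± 32.4 CPM at stage 27 (SD, n = 12). Dorsal endoderm held 45.6, 8.56 and 94.8 CPM, ventral endoderm 78.6, 48.7 and 7.60 CPM, dorsal mesoderm 42.2, 50.3 and 105 CPM, and ventral mesoderm 70.0, 9.57 and 43.0 CPM. In 3 of the 4 groups 1 library lay below 10 CPM beside much higher ones, and the groups overlapped. Earlier, replicate 1 of stage 24 dorsal mesoderm held 196 CPM from 295 reads, above each of the 12 stage 27 libraries. The other 3 earlier libraries with a read held 3.04 to 59.1 CPM.

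Earlier reads of the late-read genes were few, as the rule required. Where present they were not small, but the same values were not computed over all tested genes, so this is not a trait shown to be theirs. A read was found in 198 of the 1536 pairs of a gene and an earlier library (12.9%). The median of those 198 values was 14.6 CPM (quartiles 4.03 and 39.3 CPM), beside 16.6 CPM (quartiles 7.08 and 31.9 CPM) for the 768 stage 27 values. At least 10 reads stood behind 115 of the 198, and 30 were single reads. A median of 64.0% of a gene's earlier reads lay in 1 library, and for 12 genes that share was above 90%. The rule's limit of 4 earlier libraries favours high shares, and a gene read in only 1 earlier library has all of its earlier reads there. No earlier read was found for 2 genes, reads in 1 earlier library for 3, in 2 for 11, in 3 for 19 and in 4 for 29. Both earlier stages contributed: 45 genes had reads at stages 24 and 25, 12 at stage 24 alone and 5 at stage 25 alone.

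Both genes without an earlier read were expressed in every region at stage 27. AMCG00010645 (ENSLOCG00000010824) held 26.3, 6.42 and 81.8 CPM in the dorsal endoderm, 38.0, 22.1 and 29.7 CPM in the ventral endoderm, 40.2, 3.53 and 18.0 CPM in the dorsal mesoderm, and 17.1, 52.9 and 32.4 CPM in the ventral mesoderm. AMCG00019116 (ENSLOCG00000009971) held 27.6, 3.21 and 20.2 CPM, 1 read, then 7.97 and 91.9 CPM, 4.91, 5.30 and 37.3 CPM, and 14.8, 8.29 and 4.23 CPM in the same order. In both genes the 4 groups overlapped, and the highest library, 81.8 and 91.9 CPM, lay in endoderm. The pooled stage 27 level was 243-fold above a floor of 3 counts over all earlier reads for AMCG00010645, and 147-fold above it for AMCG00019116. This floor covers counting error only and not the differences between libraries, so it sets no lower bound on the change. Both genes were named for having no earlier read.

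**Figure D2:**
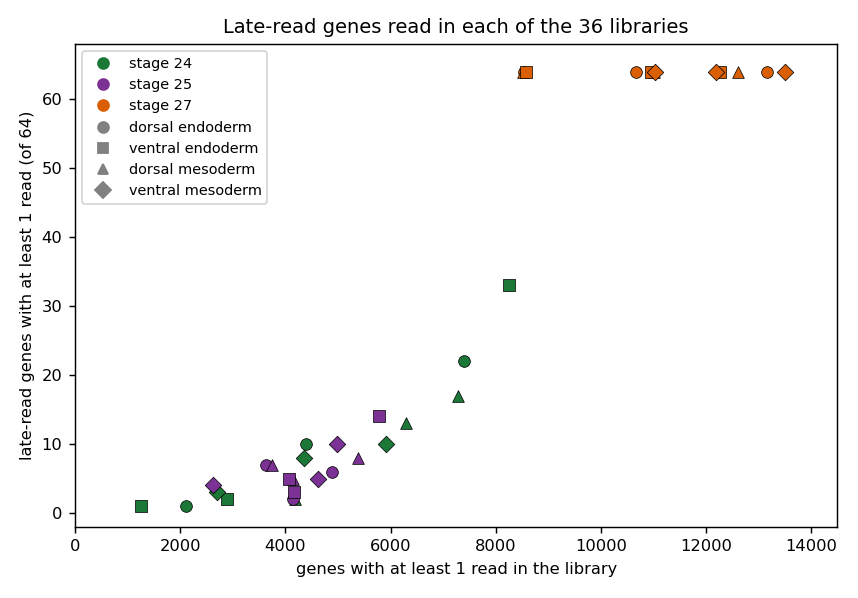
Number of the 64 late-read genes with a read (vertical axis) against the number of all genes with a read (horizontal axis), 1 point per library, coloured by stage and shaped by region. The 12 stage 27 points lie at 64 by the rule, and the earlier library with the most genes, 8249, has 33 of the 64.

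The earlier reads were spread unevenly over libraries, a feature that the rule did not fix. At stage 24, replicates 1 to 3 had reads of 1, 22 and 10 late-read genes in dorsal endoderm, 2, 33 and 1 in ventral endoderm, 13, 17 and 2 in dorsal mesoderm, and 8, 3 and 10 in ventral mesoderm. At stage 25 they had reads of 6, 7 and 2 in dorsal endoderm, 14, 3 and 5 in ventral endoderm, 5, 8 and 7 in dorsal mesoderm, and 5, 10 and 4 in ventral mesoderm. The 3 highest counts, 33, 22 and 17, all belonged to libraries numbered 2 at stage 24. Those 3 libraries also had the most genes of all earlier libraries, 8249, 7391 and 7283, and they held 72 of the 198 earlier values. Without them a read was found in 126 of 1344 pairs (9.38%). Replicate 3 of stage 24 ventral endoderm held only 3040 reads in all, and 1 read of a late-read gene.

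The number of genes with a read differed between stages over the whole table as well, from 1259 to 8249 at stage 24, 2616 to 5780 at stage 25 and 8511 to 13512 at stage 27. On average, 33.3%, 30.5% and 75.8% of the tested genes had a read in a library of stages 24, 25 and 27. For the late-read genes the shares were 15.9%, 9.90% and 100%. The rule requires the 100%, and its limit on earlier libraries with a read holds down the earlier shares. The shares of the late-read genes are thus not like for like with those of the tested genes. Library totals, 3040 to 1998280 reads, overlapped between stages. With every library thinned to 377516 reads, 57 to 63 of the 64 genes had a read in a stage 27 library (median 59). The same count was 1 to 28 at stage 24 (median 7, 11 libraries, without the one of 3040 reads) and 1 to 11 at stage 25 (median 5). At that depth 30 of the 64 were still read in all 12 stage 27 libraries. Since the genes were chosen on these same reads, the rule favours this contrast between stages at any depth. The thinned counts are thus no check on depth. Stage and the number of genes read in a library cannot be told apart in this design, because each stage 27 library had more genes than each earlier one before thinning. After thinning, replicate 2 of stage 24 ventral endoderm had 7774 genes, just above the 7738 of replicate 3 of stage 27 ventral endoderm. In bulk captures, fewer cells that express a gene and less of its RNA per cell cannot be told apart either.

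The rule limited the number of libraries with a read, and through it the mean level, so the stage ratios are a description. The ratio of the stage 27 mean CPM to the earlier mean CPM had a median of 6.65 over the 64 genes, with the 2 genes without an earlier read ranked highest. It was 1.61 over the tested genes and 1.33 over the 3047 genes read in all 12 stage 27 libraries. The ratio was above 10 for 26 late-read genes, between 2 and 10 for 28 and below 2 for 10. Among the genes with an earlier read, AMCG00014725 (ENSLOCG00000007004) had the largest ratio, 399, from 38.6 CPM at stage 27 and 0.0966 CPM earlier. Its only earlier reads were 3 in replicate 2 of stage 25 ventral mesoderm. For 45 of the 64 genes the highest of the 24 earlier libraries lay above the stage 27 mean. A highest value set against a mean favours such a result. The comparison was not made over all tested genes, so this count shows nothing particular to the 64. For 28 the highest earlier library lay above all 12 stage 27 libraries, which was so for 68% of the tested genes and for 84.2% of the 3047. The highest of 24 libraries is here set against the highest of 12, which favours a higher earlier library. The rule allowed members a read in at most 4 earlier libraries, which by itself lowers this count, so the shares are not like for like. The count was 23 without the 3 libraries of stage 24 numbered 2 named above, and 27 without the library of 3040 reads. The word late therefore describes in how many libraries these genes were read, and for 28 of them not the highest level reached.

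**Figure D3:**
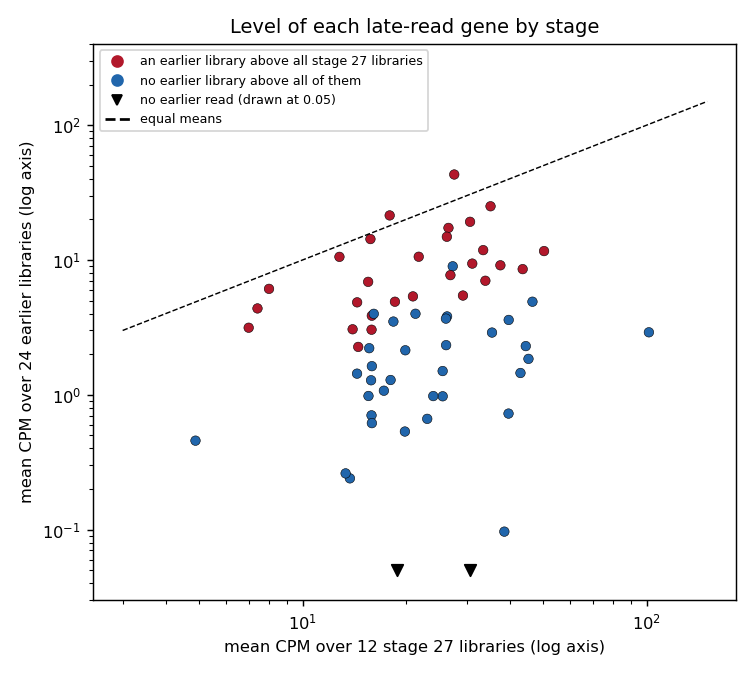
Mean CPM of each late-read gene over the 24 earlier libraries against its mean over the 12 stage 27 libraries, on log axes. Red points are the 28 genes with an earlier library above all stage 27 libraries, triangles the 2 genes with no earlier read, and 2 points lie above the dashed line of equal means.

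The earlier mean exceeded the stage 27 mean for 2 of the 64 genes, as it did for 32.3% of the tested genes. The rule's limit on earlier libraries lowers this count as well. The 2 genes are named because of these values. AMCG00003053 (ENSLOCG00000008885) averaged 27.6 ± 21.3 CPM at stage 27 (SD, n = 12), with 18.6, 8.56 and 66.4 CPM in the dorsal endoderm, 67.1, 41.6 and 8.29 CPM in the ventral endoderm, 18.6, 12.4 and 4.15 CPM in the dorsal mesoderm, and 23.9, 31.2 and 30.3 CPM in the ventral mesoderm. Earlier it averaged 43.1 ± 196 CPM (SD, n = 24), and 1255 reads (960 CPM) in replicate 2 of stage 25 dorsal mesoderm made up most of that. The other 3 earlier libraries with a read held 4.12, 19.9 and 49.1 CPM.

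AMCG00000339 (ENSLOCG00000014746) averaged 17.9 ± 16.0 CPM at stage 27 (SD, n = 12). Dorsal endoderm held 25.7, 40.7 and 2.37 CPM, ventral endoderm 51.5, 2.66 and 11.1 CPM, dorsal mesoderm 28.5, 9.71 and 2.77 CPM, and ventral mesoderm 21.1, 13.4 and 5.64 CPM. Its earlier mean was 21.4 CPM over 24 libraries, 22 of them without a read, from 497 CPM in replicate 1 of stage 24 ventral endoderm and 16.6 CPM in replicate 1 of stage 24 dorsal mesoderm. For both genes 1 earlier library set the mean, and the remaining earlier libraries had no read or values in or below the stage 27 range.

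In the fit across all tested genes (limma on the deposited log2 CPM), 64 of the 64 were higher at stage 27 than at stages 24 and 25 at an adjusted p under 0.05, beside 61% of the 14132 tested genes (61.1% were called in either direction, 0.0708% lower). The rule chose the genes on this contrast, so the count says nothing about them. The log2 difference ran from 1.44 to 5.24 with a median of 2.76, and the median over the tested genes was 1.46. Quantile normalization, which gives every library the same distribution of values, reduced the medians to 0.95 and 0.25, and then 17 of the 64 were called higher, beside 6.57% of the tested genes. On this log2 scale a gene without a read takes a fixed smallest value. AMCG00003053 was higher at stage 27 by 2.85 (SE 0.68) on it, although its mean CPM was higher earlier.

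Stages 25 and 24 were compared as a mean over the 4 regions. The rule takes no side between them, but it limited reads in these same libraries. With limma, none of the 64 genes differed at an adjusted p under 0.05, and none had an unadjusted p under 0.05. Among all tested genes 1 differed (0.00708%), and 771 had an unadjusted p under 0.05. The log2 difference of the late-read genes ran from -1.07 to 0.80, with a median of -0.16 and a median SE of 0.60, and 41 of the 64 were below 0. The rule's limit of 4 earlier libraries with a read leaves most values of these genes at the fixed value of a gene without a read. Their counts are thus not like for like with those of the tested genes, and the comparison could show little. The same holds for the comparison of endoderm with mesoderm below. AMCG00010169 (ENSLOCG00000007420) lay farthest below 0, at -1.07 (SE 0.64, adjusted p = 0.949 with limma), with reads in 4 stage 24 libraries, 1.14 to 31.4 CPM, and in no stage 25 library. The change from stage 24 to 25 was also compared between endoderm and mesoderm, and the smallest adjusted p of a late-read gene was 0.985 (limma; 0 of 14132 genes passed, 635 had an unadjusted p under 0.05).

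A fit weighted by depth gave a different count for stage 25 against 24. Limma voom on the recovered reads called 38 of the 64 genes, all lower at stage 25, beside 42.4% of the tested genes called lower. Without the library of 3040 reads it called 11, all lower at stage 25, beside 7.03%. Without the 3 stage 24 libraries numbered 2 as well it called 2 in either direction, beside 1.54% of the tested genes called lower. The members called in this comparison therefore varied with 4 libraries of stage 24. The 64 genes were chosen on reads in these same stages, so their counts are not like for like with the shares of the tested genes.

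Among the 4 regions of stage 27 the late-read genes differed by less than the rule's limit. The range over the 4 group means was 0.31 to 1.97 in log2 CPM with a median of 1.19, beside 1.63 for the tested genes and 1.39 for the 3047. It was under 1 for 19 genes and under 1.5 for 51. Dorsal mesoderm had the highest mean for 20 genes, dorsal endoderm for 15, ventral endoderm for 15 and ventral mesoderm for 14. The median difference between dorsal and ventral was 0.10 in endoderm, with 35 genes higher dorsally and 29 ventrally, and 0.15 in mesoderm, with 40 and 24. Over the tested genes the dorsal minus ventral medians were 0 in endoderm and -0.19 in mesoderm. Endoderm minus mesoderm had a median of -0.10 dorsally and -0.07 ventrally, with 29 genes higher in endoderm and 35 in mesoderm on either side, beside 0.06 and -0.14 over the tested genes. After quantile normalization the medians of the late-read genes were -0.03 for dorsal minus ventral endoderm and 0.24 for ventral endoderm minus mesoderm, both of the opposite sign. The rule limits the regional means, so these differences were not tested. The 28 genes that the limit on range left out reached a range of 4.75; 15 were highest in an endoderm group and 13 in a mesoderm group.

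**Figure D4:**
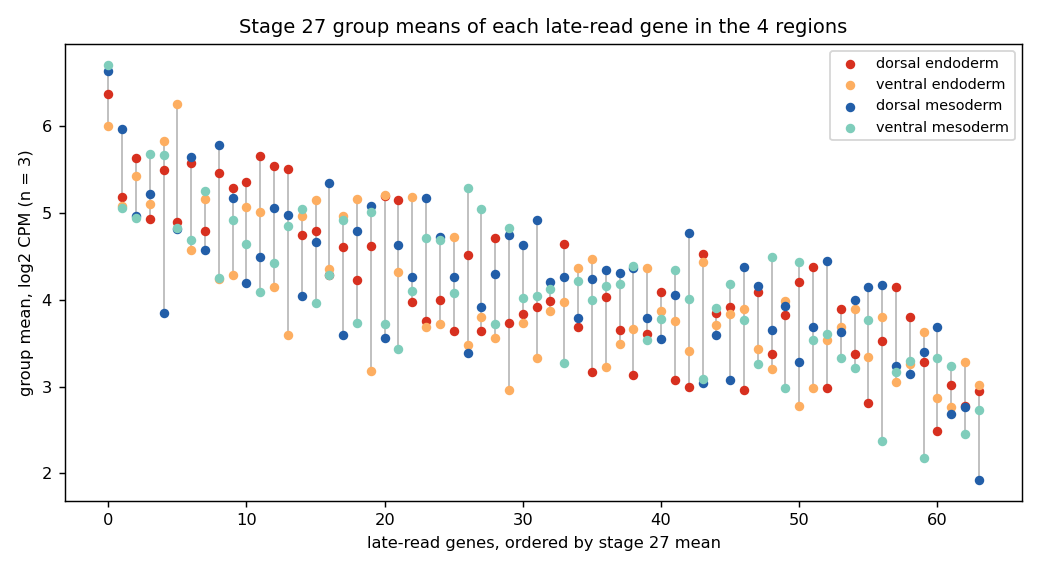
Stage 27 group means (log2 CPM, n = 3 each) of the 64 late-read genes in the 4 regions, ordered by their overall mean. Grey lines span the lowest to the highest group mean, 0.31 to 1.97, and no region is highest throughout.

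AMCG00020338 (ENSLOCG00000017597) had the most even regional means, with a range of 0.31. It held 12.2, 9.63 and 16.6 CPM in the dorsal endoderm, 26.0, 23.0 and 1.38 CPM in the ventral endoderm, 3.92, 17.7 and 13.8 CPM in the dorsal mesoderm, and 28.4, 3.83 and 17.6 CPM in the ventral mesoderm. The replicates of a region differed by far more than the regions, since a single library in each of 3 regions was several times below its fellows. Earlier, replicate 2 of stage 24 ventral endoderm held 39.8 CPM of this gene, above each of the 12 stage 27 libraries. AMCG00016023 (ENSLOCG00000009556), with a range of 0.34, averaged 15.5 ± 8.78 CPM in the dorsal endoderm, 17.4 ± 13.2 CPM in the ventral endoderm, 21.5 ± 15.0 CPM in the dorsal mesoderm and 17.7 ± 12.3 CPM in the ventral mesoderm (SD, n = 3 each). Here too the SD of each group was larger than the gaps between groups.

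At the other end, AMCG00009888 (ENSLOCG00000001981) had a range of 1.97, from dorsal mesoderm with 40.2, 1.77 and 18.0 CPM to ventral endoderm with 60.1, 103 and 26.3 CPM. Its dorsal endoderm held 97.0, 36.4 and 22.5 CPM and its ventral mesoderm 31.9, 51.7 and 70.5 CPM. The groups overlapped even so. AMCG00014725, with a range of 1.90, held 31.5, 132 and 19.0 CPM in the dorsal endoderm and 14.5, 0.886 and 38.0 CPM in the ventral endoderm, where the lowest library had 1 read. In mesoderm it held 34.3, 11.5 and 62.2 CPM dorsally and 9.10, 22.3 and 88.1 CPM ventrally.

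Replicate spread differed widely among the late-read genes. The pooled SD at stage 27 ran from 0.36 to 1.92 in log2 CPM with a median of 1.27, beside 1.20 for the tested genes and 0.99 for the 3047. The smallest belonged to AMCG00010445 (ENSLOCG00000009508), the gene with the lowest stage 27 mean, which held 9.63, 4.28 and 4.74 CPM in the dorsal endoderm, 4.00, 7.08 and 8.29 CPM in the ventral endoderm, 1.96, 2.65 and 1.38 CPM in the dorsal mesoderm, and 5.12, 3.83 and 5.64 CPM in the ventral mesoderm. All 3 dorsal mesoderm libraries lay below the others, with 1 to 3 reads each. The log2 values include a prior count of 2 reads, which narrows the spread of a gene with so few reads. Its SD is thus not like for like with those of genes with more reads. AMCG00009927 (ENSLOCG00000005510) was next, with an SD of 0.60 and a mean of 7.99 ± 4.86 CPM (SD, n = 12).

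The largest SD, 1.92, belonged to AMCG00006984 (ENSLOCG00000000004), with 27.6, 6.42 and 1.19 CPM in the dorsal endoderm, 19.5, 67.3 and 5.53 CPM in the ventral endoderm, 16.7, 111 and 1.38 CPM in the dorsal mesoderm, and 15.9, 47.2 and 2.82 CPM in the ventral mesoderm. The library numbered 3 was the lowest in each of the 4 regions, and the values of 1.19 and 1.38 CPM were 1 read each. AMCG00018130 (ENSLOCG00000002839), with an SD of 1.81, held 5.78, 82.4 and 1.19 CPM in the dorsal endoderm. In the dorsal mesoderm it held 20.6, 45.9 and 1.38 CPM, and in both regions its lowest value was 1 read. Its ventral endoderm held 25.5, 19.5 and 2.76 CPM and its ventral mesoderm 47.2, 12.8 and 48.6 CPM, so the library numbered 3 was the lowest in 3 of the 4 regions and the highest in ventral mesoderm.

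**Figure D5:**
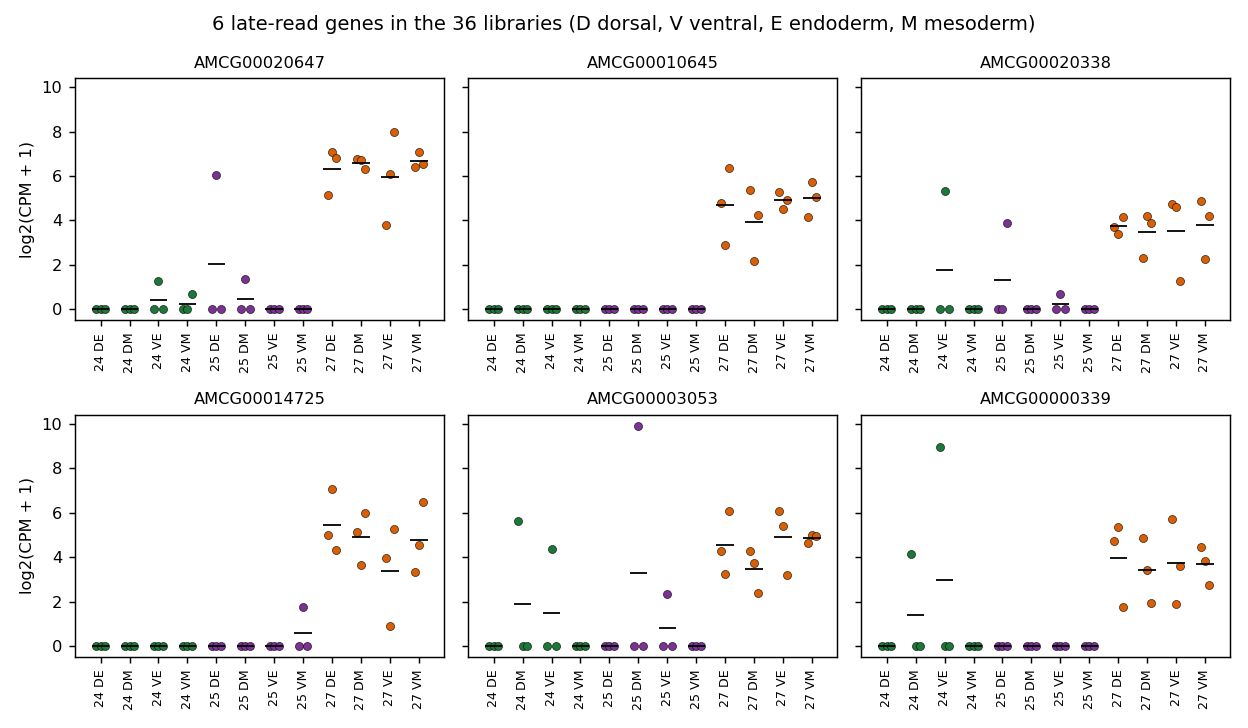
Levels of 6 late-read genes in all 36 libraries as log2(CPM + 1), by group and stage, with a bar at each group mean. AMCG00010645 has no earlier read, and AMCG00020338, AMCG00003053 and AMCG00000339 each have 1 earlier library above every stage 27 library.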

How the data were processed

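The submitters' processing notes name Trimmomatic 0.38, STAR 2.6, and edgeR in R 3.6.0, without their settings; the counting tool, genome build and annotation are not given in the sources used here. Per the labels' protocols, cDNA was amplified before library construction. The authors deposited log2 CPM values. Their smallest value, 0.875 in every library, is that of a prior count of 2 reads, from which library totals and whole reads were recovered: 100% of values below 200 reads were whole within 0.02, and rebuilding log2 CPM from whole reads changed no value by more than 5.0e-09. Since amplified reads can be copies of 1 molecule, floors cover counting error only.

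The members and lists were chosen with earlier results of these data known. Genes with a CPM above 1 in at least 3 libraries entered the fit by limma 3.58.1 (moderated test with a variance trend, a mean for each of 12 groups, 36 libraries) in R 4.3.3, with Benjamini-Hochberg adjustment and a threshold of 0.05. The fit was tested on simulated data without the differences in genes read between the stages, so that test does not cover them. Named genes are members highest or lowest in level, range, replicate SD or earlier libraries with a read; at most 2 of each kind are printed because the table holds no symbols. For the same reason the gene lists and cell type markers were not used. Reads were thinned at random without replacement. Tables were handled with Python 3.11.15, pandas 2.3.3 and numpy 2.4.6. Alternatives changed the filter, pseudocount, normalization, test, libraries and rule.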

Additional observations from a re-analysis of the deposited data

How the results depend on the processing

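The rule gave 16 genes with at most 2 earlier libraries allowed, 172 with at most 6, 19 with a range under 1 and 99 with genes without a gar ortholog included. Leaving out a replicate number at stage 27 gave 43 to 171 genes (122 without replicate 2, 171 without replicate 3). With reads thinned to equal depth 49 genes met it, 27 of them among the 64, and with at least 2 reads required 68 met it, 41 of them among the 64. The limit of 150 was not reached, so leaving it off changes nothing.

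For stage 25 against 24, limma called 6 genes after quantile normalization, 2 with the libraries of those stages alone, 3 without the library of 3040 reads, 2 without the 3 stage 24 libraries numbered 2, and 0 to 3 with 1 library or replicate number left out; no late-read gene was among any of these. The number of genes called fell to 0 when replicate 2 of stage 24 dorsal endoderm or dorsal mesoderm, or replicate 3 of stage 24 ventral mesoderm, was absent. The rule's limit on earlier reads left a late-read gene little room to be called in these fits. Limma voom called 6015 genes and 38 of the 64 (median log2 difference of the 64 -1.80), 1015 and 11 without the library of 3040 reads, and 286 and 2 without the 3 libraries as well. Voom sets the value of a gene without a read by library total, so its counts are not like for like with those of limma. The replicate number as a block gave 1 call, as without it. Same-numbered libraries of stages 24 and 25 did not deviate together (correlations of -0.06 to 0.02 in 12 pairs). With many values at the fixed smallest value, this cannot show what the numbers mark. Whether same-numbered libraries of different regions within a stage belong together was not tested.

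For stage 27 against the earlier stages, limma called 8630 genes, 944 after quantile normalization (17 of the 64, median log2 difference 0.95), 5151 with voom, and 3785 to 9163 with a library or replicate number left out (56 to 64 of the 64; 3785 and 56 without replicate 1). The median of the 64 was 4.07 with voom without the library of 3040 reads and 4.23 without the 3 libraries as well, and the block gave 8639 calls. Over the alternatives, the dorsal minus ventral median of the 64 genes ran from -0.06 to 0.22 in endoderm and from 0.09 to 0.32 in mesoderm, and the endoderm minus mesoderm median from -0.33 to -0.05 dorsally and from -0.27 to 0.24 ventrally. The first changed sign after quantile normalization (-0.03) and without replicates 1 and 3 (-0.06 and -0.02), and the last after quantile normalization (0.24) and without replicate 3 (0.07). The cause of these changes was not tested. Of 224 recomputed stage 27 differences of 14 named genes, 224 stayed above 0 and 35 moved by over 1 replicate SD. The rule chose the genes on this contrast and so all but set that sign in advance. For stage 27, the fit with only the stages compared is the fit itself and was not run again. With libraries thinned to 377516 reads, a read remained in 162 of 1472 earlier values of the 64 genes and in 716 of 768 at stage 27, and a gene missed at that depth cannot be called absent. The genes were chosen on these same reads, so the contrast is no check on depth.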

Other observations

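Genes without a gar ortholog were outside the rule, but 35 of 10520 met its other conditions (0.333%, beside 0.560% of the genes with an ortholog). Their stage 27 means ran from 2.78 to 5.34 in log2 CPM with a median of 3.85. In 20 of the 35, an earlier library lay above all 12 stage 27 libraries.

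Members differed with the number of earlier libraries in which they were read. The 29 genes read in 4 earlier libraries had a median stage 27 mean of 20.9 CPM and a median stage ratio of 4.32, and 16 of them had an earlier library above all stage 27 libraries. The 19 genes read in 3 had medians of 18.0 CPM and 12.3, and 6 of them had such a library. The 16 genes read in 0 to 2 had medians of 25.1 CPM and 10.2, and 6 had such a library. The ratio and an earlier library above stage 27 both depend on earlier reads, and 2 of the 16 genes had none. Such differences are thus partly built in. The rule used these values, so no test was made.

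Values of at most 3 reads numbered 78 at stage 27. Replicate 2 of dorsal endoderm and replicate 3 of dorsal mesoderm held 12 each, replicate 2 of dorsal mesoderm 11, replicate 3 of dorsal endoderm 10 and replicate 2 of ventral endoderm 9. The other 7 libraries held 0 to 7 each. The lowest of the 12 values of a gene lay most often in replicate 2 of dorsal mesoderm, for 11 of the 64 genes, and in each of the other 11 libraries for 1 to 8 genes.

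Consecutive bowfin identifier numbers occurred in 2 pairs among the 64 genes, AMCG00000339 with AMCG00000340 and AMCG00000601 with AMCG00000602. The table gives no positions, so whether they are neighbours in the genome was not tested.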
